A study of Drosophila melanogaster with 6 samples.

Results

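The genes described here are those of the DNA damage response and of DNA repair in sorted midgut cells of old and young fruit flies (Drosophila melanogaster). They were taken from a list of 43 gene symbols, by finding each symbol among the gene names of the rows of the authors' deposited table of the comparison of the ages. Of the 43 symbols, 39 had a row, and each had its own, so the account covers 39 of 8164 rows. The symbols tim-2, spn-D, Blm and Ligase4 stood in no row and were dropped, although the gene now called Blm is listed as mus309 and has a row under that name, and RefSeq gives Tim-2 as another name of timeout, whose row is described with a wider list of repair genes. In 34 of the 39 rows the table names a single gene, and in 5 (grp, mus312, Ku80, mus201 and hay) it names other genes beside the member, so that the value of such a row cannot be given to the member alone.

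RNA came from cells sorted by flow cytometry from dissociated midguts of flies that carry esg-GAL4 (NP5130) with UAS-GFP and a nuclear UAS-GFPnlacZ in a yw background. The escargot driver marks intestinal stem cells and their immediate daughters, so the sorted population is enriched for stem cells and is not pure. There were 3 libraries from old flies of 59 to 65 days and 3 from young flies of 6 to 8 days, prepared as separate batches of midguts, and both ages carried the same transgenes. The columns of values per library in the table match no sample label, so no value per library, no spread between libraries and no depth is given, and levels are the authors' means over both ages. The sources used here do not state which age is the numerator of the deposited log2 fold change: a positive and a negative sign mean opposite directions between old and young, and neither is given an age. In sorted bulk RNA, fewer cells of a type and less RNA per cell cannot be told apart.

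Cells meet DNA damage with a signalling layer and a repair layer. Breaks are sensed by the MRN complex (Mre11, Rad50, Nbs) and signalled by the kinase ATM, encoded in the fly by tefu, while stalled replication is signalled by the kinase ATR, encoded by mei-41; the effector kinases Chk2 (lok) and Chk1 (grp) and the transcription factor p53 act downstream. Repair then follows the lesion: homologous recombination or end joining for breaks, nucleotide excision for bulky adducts, mismatch repair for replication errors, base excision for damaged bases, and translesion polymerases to copy past what remains. Intestinal stem cells divide throughout adult life, and their genomes are known to gather mutations and rearrangements with age.

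A row was called where the deposited FDR, the p adjusted over all rows for the false discovery rate, was under 0.05. By that rule 3 of the 39 repair rows were called, all positive: the row of Ku80, mus101 and tos. That is 7.69% of the repair rows against 7.1% of all rows called in either sign, 5.17% called positive and 1.94% called negative, a share near the background. Counting the row of timeout as tim-2, a choice made after its value was seen, gives 4 calls in 40 rows. An unadjusted p under 0.05 was found for 8 repair rows, or 20.5%, against 19.3% of all rows, and 7 of the 8 were positive, where the background was 11.8% positive and 7.48% negative. The other 31 rows had an unadjusted p of 0.05 or more, which does not show that they were equal between the ages.

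The signs of the repair rows leaned one way, although few of the single differences passed the test. Of the 39 repair rows, 31 had a positive sign, or 79.5%, against 53.8% of all 8164 rows according to the authors' deposited table. The median log2 fold change of the repair rows was 0.21, with quartiles of 0.05 and 0.47, against a median of 0.05 with quartiles of -0.29 and 0.38 over all rows. Only the 3 called rows reached a difference of 2-fold, and the repair rows spanned log2 fold changes from -0.69 to 1.52. Low abundance moves with a positive sign in this table: 68.6% of all rows under 5 CPM (read counts scaled to a common library total) were positive, against 48.6% of rows of at least 5 CPM. Among the repair rows 11 of 14, or 78.6%, were positive under 5 CPM and 20 of 25, or 80.0%, at 5 CPM or more. No test of the list was made, because its members were chosen with earlier results of these data known.

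**Figure D1:**
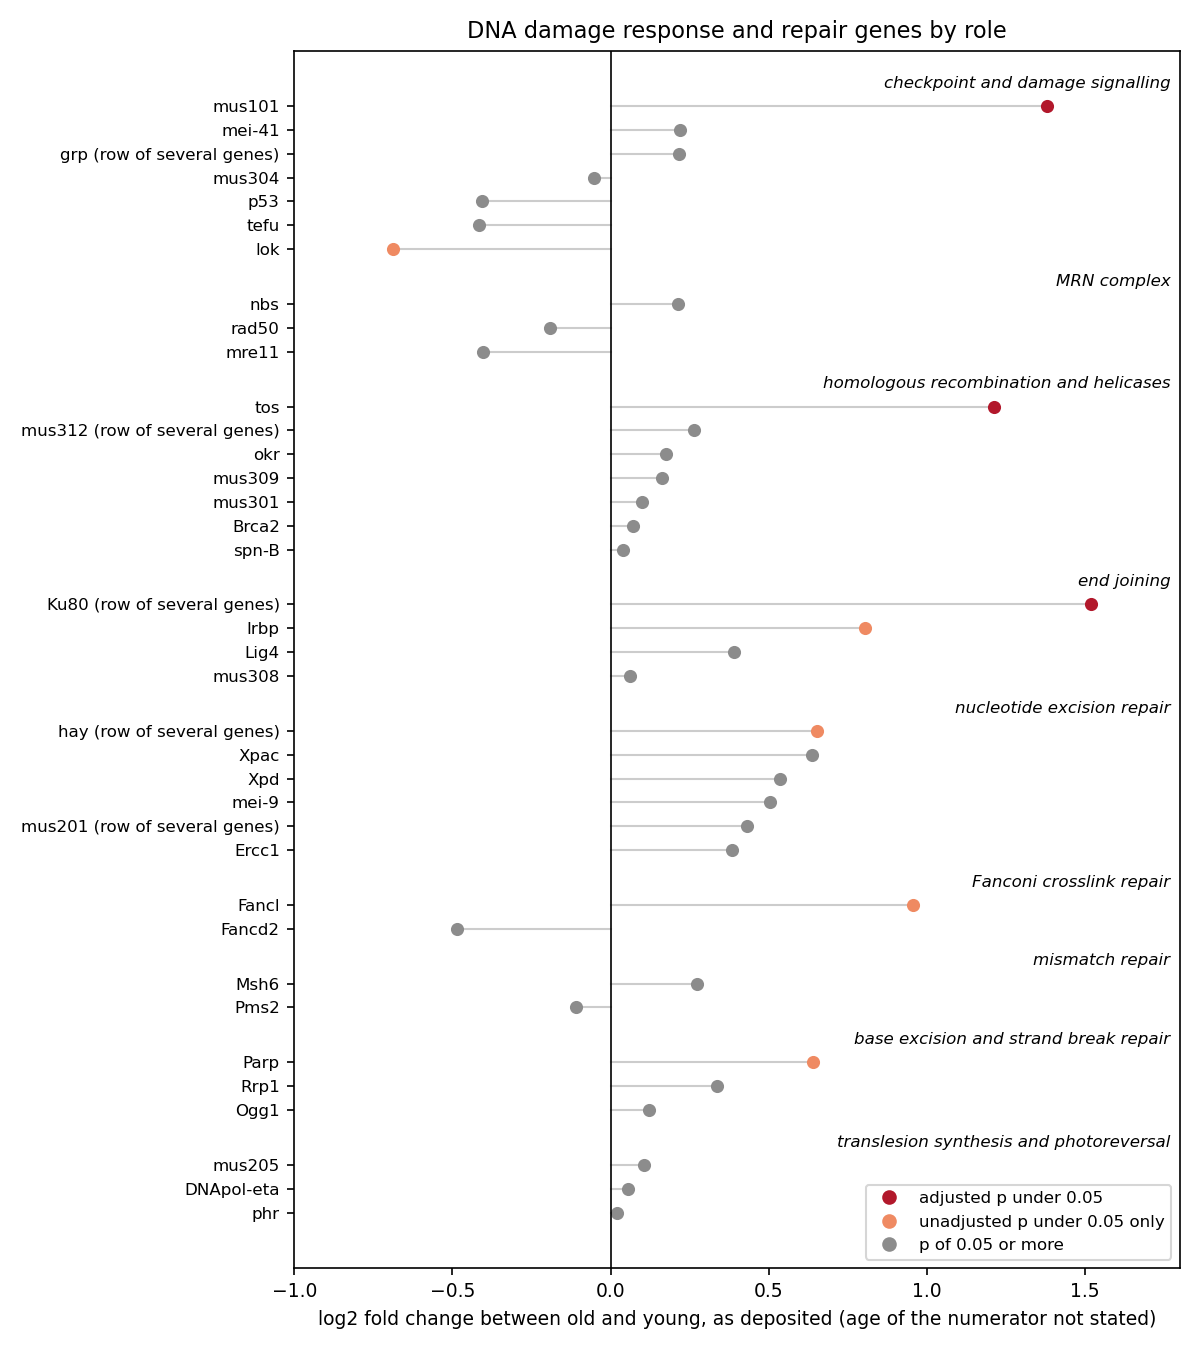
Log2 fold change as deposited of the 37 repair rows that are reported singly, grouped by role, with a line from 0 to each point and colour for the deposited p; there is no error bar because the comparison columns hold none. Points run from -0.69 for lok to 1.52 for the row of Ku80, and all 7 recombination rows drawn, all 4 end joining rows and all 6 excision repair rows lie right of 0.

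Among checkpoint and damage signalling genes, 3 of 7 rows were positive and 1 was called. The call was mus101 (FBgn0002878, dm3 X from 13616322 to 13621145, plus strand), the fly TopBP1, a scaffold that activates ATR and is needed for replication. Its log2 fold change was 1.38 according to the authors' deposited table, with a p of 0.000654 and an FDR of 0.0134, and its level averaged only 2.56 CPM. No other row overlaps mus101. The 3 nearest rows on either side had log2 fold changes between -0.27 and 0.36 according to the authors' deposited table, and the smallest p among these 6 was 0.280.

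The kinase genes lay on both sides of 0. According to the authors' deposited table mei-41, which encodes ATR, had a log2 fold change of 0.22 at an FDR of 0.822, and mus304, which encodes its partner ATRIP, had -0.05 at an FDR of 0.967. The row of grp, which encodes Chk1 and shares its row with squ, CG33552 and several microRNA genes, had 0.22 according to the authors' deposited table at an FDR of 0.797. The gene tefu, which encodes ATM, had a log2 fold change of -0.42 according to the authors' deposited table, at an FDR of 0.561. The gene p53, a regulator of damage-induced cell death, had -0.41 at an FDR of 0.518 according to the authors' deposited table, and its level averaged 7.15 CPM. None of these 5 rows passed the test.

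The gene lok (FBgn0019686, 2L from 20061477 to 20064381, plus strand), which encodes Chk2, had the most negative value of all repair rows. Its log2 fold change was -0.69 according to the authors' deposited table, with a p of 0.0475 and an FDR of 0.253, so it was not called, and its level averaged 20.8 CPM. Rows around lok on the chromosome also had negative values. According to the authors' deposited table lok lies in an unbroken run of 19 rows with a negative sign, from 19969484 to 20134901 on 2L, a span of 165.4 kb. Of these 19 rows, 10 were called and 16 had an unadjusted p under 0.05, with a median log2 fold change of -1.09. The table holds 1698 such runs of negative rows, and 2 of them, this one included, have at least 19 rows. Rows that carry equal values, such as twi and ord on 2R at -0.99 according to the authors' deposited table, were counted singly. Next to lok, the adjacent row barr had -0.88, the overlapping row vls, which shares the last 127 bases of lok, had -0.25, and Kua, 37.7 kb away, had -3.83 according to the authors' deposited table. Because the run was noticed after the values were seen, it is a description of where lok lies, and its part in the value of lok was not tested.

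**Figure D2:**
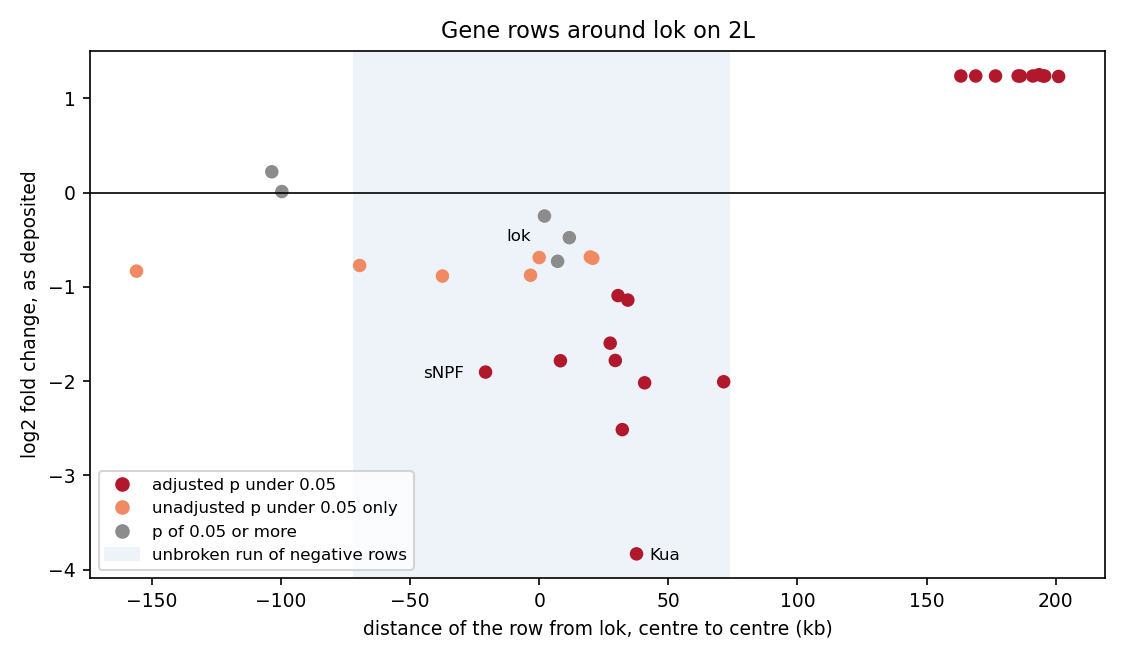
Log2 fold change as deposited of every row within 220 kb of lok on 2L, by distance from lok in kb, coloured by the deposited p, with the unbroken run of 19 negative rows shaded. The value of lok, -0.69, is among the smaller ones of the run, whose lowest is -3.83 for Kua; the tight group of positive points on the right consists of neighbouring rows with nearly equal values.

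The MRN complex, which senses and trims broken ends, had no call among its 3 rows. According to the authors' deposited table mre11, the nuclease, had a log2 fold change of -0.40 at an FDR of 0.484, and its level averaged 33.4 CPM. The ATPase gene rad50 had -0.19 at an FDR of 0.808, and nbs had 0.21 at an FDR of 0.816, according to the authors' deposited table. The subunit genes thus differed in sign, and none had a p under 0.05.

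Among the genes of homologous recombination and its helicases, 8 of 8 rows were positive, with a median log2 fold change of 0.17 and 1 call. The call was tos (FBgn0015553, 2L from 18679630 to 18682155, minus strand), the fly exonuclease Exo1, which resects break ends and excises mismatched strands. Its log2 fold change was 1.21 according to the authors' deposited table, with a p of 0.00118 and an FDR of 0.0211, and its level averaged only 1.93 CPM. All 2526 bases of tos lie within the span of CG31751 on the other strand, and the library kit named in the labels does not mark strand. According to the authors' deposited table CG31751 had 0.57 at an FDR of 0.409, and its level averaged 4.0 CPM. In the BDGP6 annotation the exons of tos and of CG31751 share 0 bases. The part of unspliced reads of CG31751 in the value of tos was not tested.

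The other recombination genes reported singly lay between 0.04 and 0.26. The recombination gene spn-B had a log2 fold change of 0.04 at an FDR of 0.982 according to the authors' deposited table. The Rad54 translocase gene okr had 0.17 according to the authors' deposited table, and Brca2, a mediator of strand exchange, had 0.07, at FDRs of 0.854 and 0.988. According to the authors' deposited table mus309, the Bloom helicase, had 0.16 and mus301, the HELQ helicase, had 0.10, at FDRs of 0.893 and 1. The row of mus312, the fly SLX4, a scaffold for junction nucleases, shared with CG42307, had 0.26 according to the authors' deposited table, at an FDR of 0.736. None of these 6 rows had an unadjusted p under 0.05.

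End joining had the largest median of the roles with at least 3 rows, 0.60, and all 4 of its rows were positive. The row of Ku80 (FBgn0041627, 2L from 15768512 to 15773119, minus strand), the larger subunit of the Ku ring that caps broken ends, had a log2 fold change of 1.52 according to the authors' deposited table. Its p was 4.24e-05 and its FDR 0.00144, the smallest of all repair rows, and its level averaged 3.76 CPM. The table names this row Ku80;CG31826, and 1 of its 2 transcripts matched the BDGP6 annotation, so how much of the value belongs to CG31826 was not tested. The partner subunit gene Irbp, which encodes Ku70 (FBgn0011774, 3R from 7235771 to 7238162, plus strand), had 0.80 according to the authors' deposited table, and its level averaged 8.08 CPM. With a p of 0.0125 and an FDR of 0.112, Irbp was not called. The ligase gene Lig4, which seals the joined ends, had 0.39 according to the authors' deposited table at an FDR of 0.660. In the alternative, polymerase theta pathway, mus308 had 0.06 according to the authors' deposited table at an FDR of 1. Both Ku rows thus carried the same sign with an unadjusted p under 0.05, and the difference between either and Lig4 or mus308 was not tested.

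The member list held 6 rows of nucleotide excision repair, all positive in a narrow band from 0.39 to 0.65, with a median of 0.52 and no call. The row of hay, which encodes the XPB helicase of the transcription factor TFIIH and shares its row with CG34001, had a log2 fold change of 0.65 according to the authors' deposited table with a p of 0.0357 and an FDR of 0.216. The other TFIIH helicase gene, Xpd, had 0.54 according to the authors' deposited table, with a p of 0.0921 and an FDR of 0.362, and its level averaged 14.1 CPM. The damage-binding gene Xpac had 0.64 according to the authors' deposited table with a p of 0.0917 and an FDR of 0.361. The genes of the paired nuclease that cuts on the 5′ side of the lesion, mei-9 (XPF) and Ercc1, had 0.50 and 0.39 according to the authors' deposited table, at FDRs of 0.490 and 0.665. The row of mus201, which encodes the XPG nuclease of the 3′ side and shares its row with Chrac-14, had 0.43 according to the authors' deposited table at an FDR of 0.555. The 6 values were alike in sign and size, and each taken alone did not pass the test. Other genes of this pathway, in the wider list described below, did not all share the sign. There mus210 (XPC), Rad23 and the TFIIH gene Tfb1 had -0.37, -0.33 and -0.16 according to the authors' deposited table. The TFIIH genes Ssl1, Tfb4, mrn (Tfb2), Cdk7, CycH and CG3337 (mat1) lay between 0.12 and 0.66, and none of these rows was called.

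The Fanconi pathway, which unhooks crosslinked strands by ubiquitination of FANCD2, had rows of opposite sign. The ubiquitin ligase gene Fancl (FBgn0037781, 3R from 5877228 to 5878568, minus strand) had a log2 fold change of 0.96 according to the authors' deposited table, with a p of 0.00792 and an FDR of 0.0807, and its level averaged 4.0 CPM. Its substrate gene Fancd2 had -0.49 according to the authors' deposited table, at an FDR of 0.453, and its level averaged 4.33 CPM. Neither was called, and the difference between the pair was not tested. Of Fancl, 81 bases overlap CG3925 on the other strand, which had -0.01 according to the authors' deposited table.

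The remaining repair pathways had no call. Among mismatch repair genes, Msh6 had a log2 fold change of 0.27 and Pms2 -0.11 according to the authors' deposited table, at FDRs of 0.731 and 0.850. In base excision and strand break repair all 3 rows were positive. The strand break sensor gene Parp (FBgn0010247, 3RHet from 1935205 to 2026815, plus strand) had 0.64 according to the authors' deposited table with a p of 0.0283 and an FDR of 0.188, and its level averaged 82.0 CPM. The 3 nearest rows on either side of Parp were positive as well, between 0.11 and 1.75 according to the authors' deposited table. The highest of them, spok, was called at an FDR of 0.00013, and the part of position in the value of Parp was not tested. The endonuclease gene Rrp1 and the glycosylase gene Ogg1 had 0.34 and 0.12 according to the authors' deposited table, at FDRs of 0.629 and 0.927. The translesion polymerase genes mus205, the catalytic subunit of polymerase zeta, and DNApol-eta had 0.10 and 0.06, and the photolyase gene phr had 0.02 according to the authors' deposited table. Their FDRs were 0.926, 0.985 and 1.

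**Figure D3:**
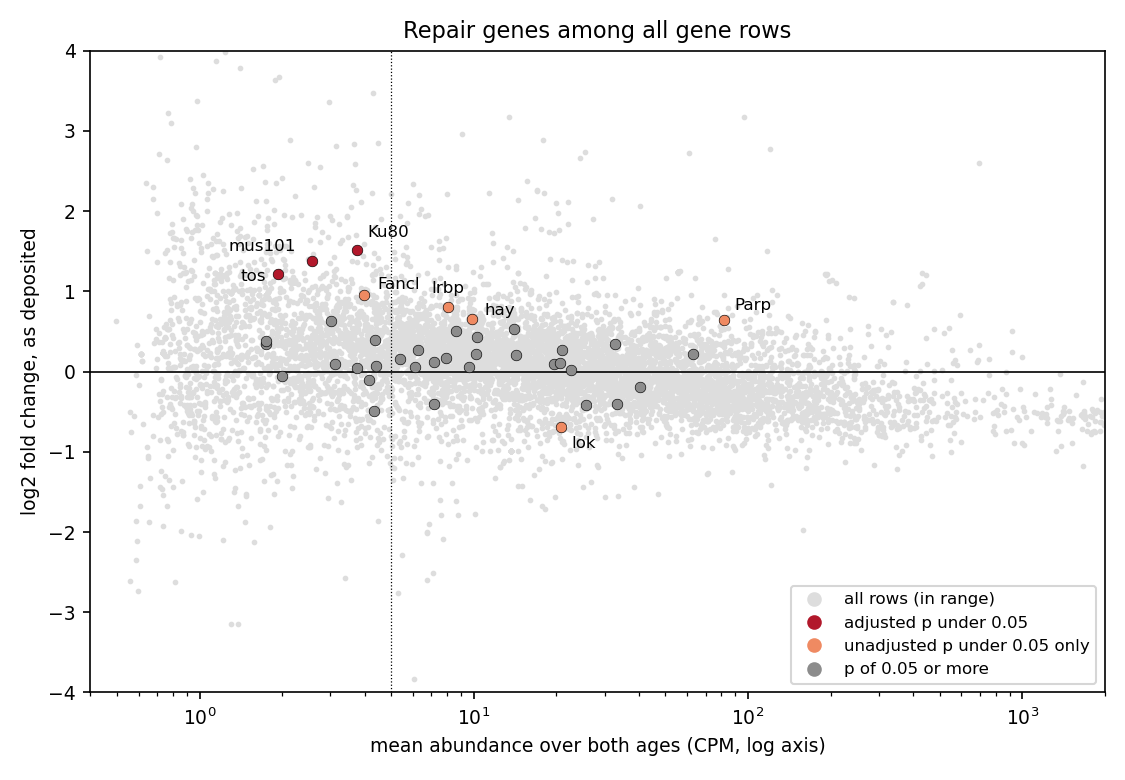
Log2 fold change as deposited against mean abundance over both ages in CPM on a log axis, for all rows (grey, in the plotted range) and the 39 repair rows (outlined, coloured by the deposited p), with a dotted line at 5 CPM. The 3 called repair rows lie left of that line, at 1.93, 2.56 and 3.76 CPM, and Parp at 82.0 CPM is the most abundant repair row.

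The repair genes were low in abundance. Their median was 7.95 CPM against 15.3 CPM over all rows according to the authors' deposited table, and 14 of the 39, or 35.9%, lay under 5 CPM against 26.1% of all rows. All 3 calls were among those 14. Positive calls are common at that level, at 11.9% of all rows under 5 CPM against 2.8% of rows of at least 5 CPM, and no repair row of at least 5 CPM was called by the deposited FDR of the edgeR comparison, where 4 had an unadjusted p under 0.05. The called row of timeout, at 81.8 CPM according to the authors' deposited table, would be the exception if counted as tim-2. The span of timeout overlaps that of CG42573, which was also called. According to the authors' deposited table CG42573 had a log2 fold change of 1.17 at an FDR of 0.00562, with a mean of 64.2 CPM. The part of CG42573 in the value of timeout was not tested. Divided by exon length in the BDGP6 annotation, the 33 single-gene repair rows with an annotated transcript had a median of 2.56 CPM per kb, against 7.57 CPM per kb over 7179 such rows. The highest level per kb was that of Parp, 26.4 CPM per kb, followed by mre11 with 16.6, Rrp1 with 12.9 and phr with 11.5 CPM per kb. Levels per kb of the signalling kinases were 9.09 for lok, 3.06 for tefu and 1.29 for mei-41. The called genes were near the bottom of the order, tos with 0.81 and mus101 with 0.53 CPM per kb, the lowest of the 33. Values per library were not used, so whether neighbours in this order differ was not tested.

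**Figure D4:**
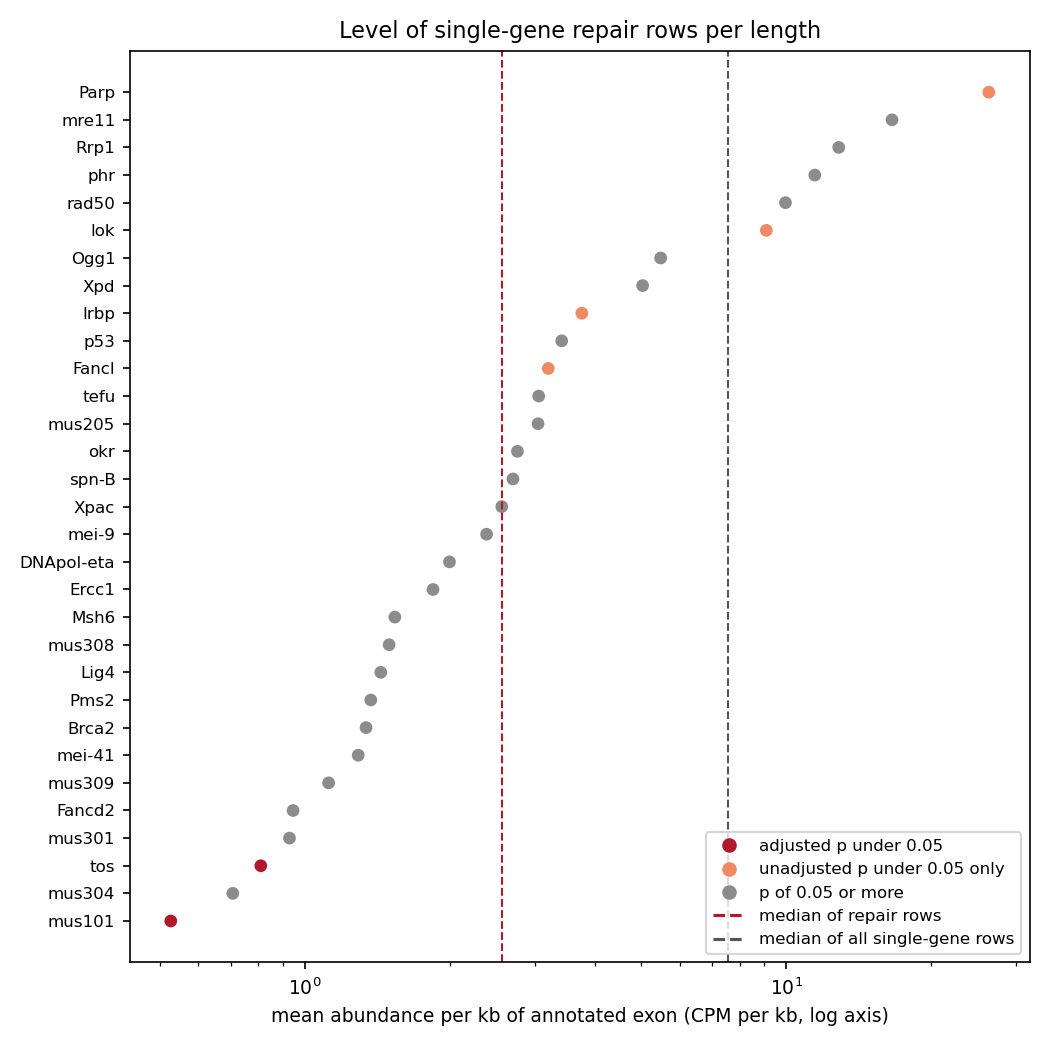
Mean abundance over both ages per kb of annotated exon, in CPM per kb on a log axis, for the 31 single-gene repair rows with an annotated transcript that are reported singly, coloured by the deposited p. The level runs from 0.53 for mus101 to 26.4 for Parp, and the dashed lines mark the medians of 2.56 for all 33 such repair rows and 7.57 for all single-gene rows.

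Repair rows occur on all major arms. On the X, 6 of 6 repair rows were positive with a median of 0.45, where 49.1% of all 1345 rows on the X were positive according to the authors' deposited table. Positive repair rows numbered 7 of 9 on 2L, 5 of 7 on 2R, 6 of 7 on 3L and 6 of 9 on 3R, where 58.9%, 51.5%, 53.6% and 55.9% of all rows were positive according to the authors' deposited table. Overlap with another row was found for 18 of the 39 repair rows, and besides tos none of the called rows had any. Every overlap was with a row on the other strand. Without strand, reads from shared exon bases, and unspliced reads in the shared span, cannot be told apart from the member's. Shared exon bases in BDGP6 ranged from 0, as between p53 and Gr94a, to a total of 482 between okr and Bem46.

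A wider list of repair and replication stress genes, apart from the 39 rows, gave 52 rows for 63 symbols, several symbols being other names of 1 gene. Of these 52 rows, 5 were called positive and 0 negative, or 9.62% against 5.17% of all rows called positive, and 14 had an unadjusted p under 0.05, all positive, or 26.9%, against the 11.8% of all rows. The median log2 fold change was 0.26, and 34 of 52, or 65.4%, were positive. The calls were the sliding clamp PCNA gene mus209 (0.99, FDR 0.0425), the clamp loader genes RfC3 (1.14, FDR 0.0425) and RfC4 (1.09, FDR 0.0187), rev7, the partner subunit of polymerase zeta (1.14, FDR 0.0374), and the row of timeout, a relative of the mammalian fork protection gene Timeless that shares its row with CG34308 (0.96, FDR 0.0381), all according to the authors' deposited table. The span of timeout overlaps that of CG42573, which was itself called positive. The mean of rev7 was only 2.14 CPM, whereas its catalytic partner mus205 had 20.6 CPM and 0.10 according to the authors' deposited table. The span of rev7 overlaps that of noi, whose part in the value of rev7 was not tested. Of the other 9 with an unadjusted p under 0.05, RpA-70, RPA2 and CG15220, which RefSeq names RPA3, form the single-strand binding complex RPA. They had log2 fold changes of 0.79, 0.96 and 0.83 according to the authors' deposited table, at FDRs of 0.116, 0.0648 and 0.147. The ATR mediator Claspin, listed as CG32251, had 0.98 at an FDR of 0.0511, and RecQ4, WRNexo, Fen1, CG30085 (Rif1) and the variant histone gene His2Av lay between 0.74 and 0.88 according to the authors' deposited table.

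Many of these genes also serve DNA replication, and a list of 19 rows, called S phase genes here, had larger values than the repair rows. The list also held the cell cycle regulators CycE, stg, dap and E2f. Of these, dap (-0.15) and the row of E2f (-0.13) were negative according to the authors' deposited table. Of the 19, 17 were positive, with a median log2 fold change of 0.83 against 0.21 for the repair rows and 0.05 for all rows according to the authors' deposited table, and 4 were called positive, or 21.1% against 5.17% of all rows. They were mus209, which is in both lists, RnrS (1.04), RnrL (0.96) and Cdc6 (1.43), whose span overlaps Zasp66, all according to the authors' deposited table. How far the values of the repair rows move with those of S phase genes was not tested, because values per library were not used.

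**Figure D5:**
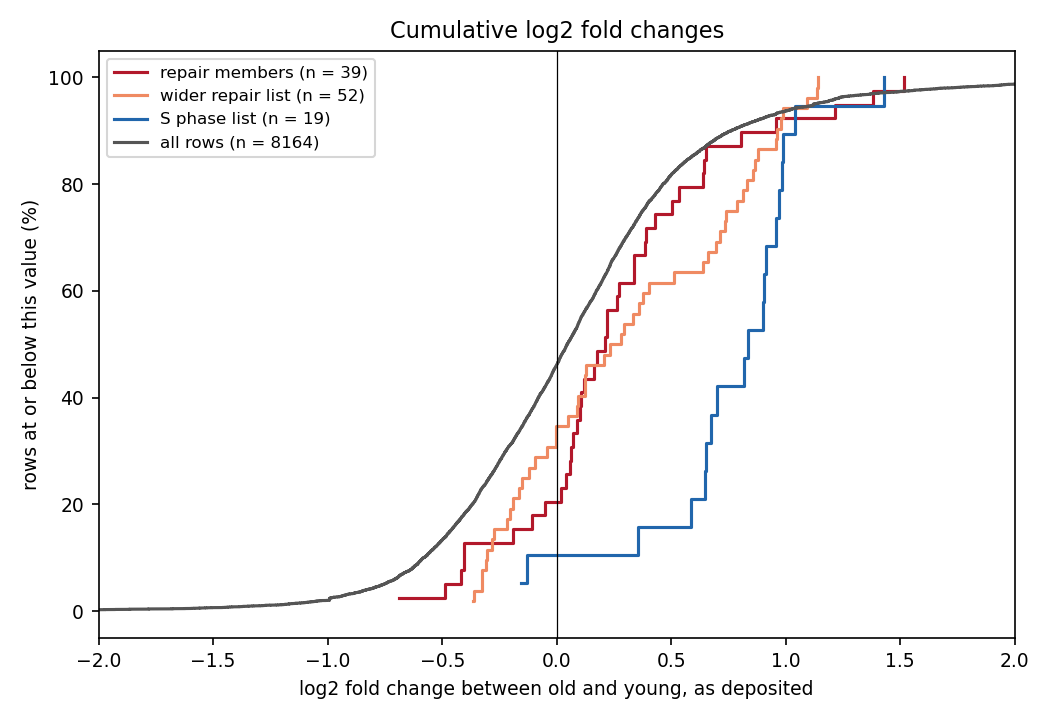
Cumulative percentage of rows at or below each log2 fold change, as deposited, for the 39 repair rows, the 52 rows of the wider repair list, the 19 rows of S phase genes and all 8164 rows (axis limited to -2 and 2). The medians are 0.21, 0.26, 0.83 and 0.05.

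Genes known in the fly to be induced by p53 after irradiation gave 7 rows, of which 5 were positive and the median was 0.77. Over all rows 53.8% were positive and the median was 0.05. The rows of Ku80 and Irbp, both positive, are among the 7 and are repair rows as well. The 2 calls were both positive and both under 5 CPM, where 11.9% of all rows were called positive, against 5.17% of all rows at any level. Apart from the row of Ku80, the call was the cell death gene rpr, with a log2 fold change of 1.74 and an FDR of 0.00212 according to the authors' deposited table, and its level averaged only 0.94 CPM. The cell death gene hid, listed as W, had 0.24, the ligand gene egr -0.22 and the transcription factor gene Xrp1 -0.24 according to the authors' deposited table, at FDRs of 0.718, 0.803 and 0.801. Corp, an inhibitor of p53, had 0.77 according to the authors' deposited table at an FDR of 0.209.

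Markers of the sorted cells were present. All 8 progenitor markers had a row, with means from 3.92 CPM for wor to 835 CPM for esg according to the authors' deposited table, 3 of them with a positive sign and 1 called positive. Called shares over all rows were 5.17% positive and 1.94% negative. Markers of other cell types had rows as well, some with means under 5 CPM. Of the enteroendocrine markers, 8 of 8 had a positive sign and 6 were called, and 2 of 8 enterocyte markers were called positive and 3 negative. Among visceral muscle markers, 3 of 5 measured were called positive, and 2 of 4 measured haemocyte markers were called positive and 1 negative. Of 3 measured fat body and germ line markers, 1 was called, with a negative sign. Of the called muscle markers, sls had 2.51 at 14122 CPM according to the authors' deposited table, and 13 other rows on 5 chromosome arms, all over 10000 CPM, lay within 0.1 of that log2 fold change, and whether the value is that of sls alone was not tested. The called muscle marker Zasp66 overlaps Cdc6, and the muscle markers Mlc2 and Act57B had 0.09 and -0.23 according to the authors' deposited table and were not called. The part of these other cells in the values of the repair rows was not tested.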

How the data were processed

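RNA-seq libraries of 3 old and 3 young batches were made with a TruSeq RNA kit, per the labels' protocols, of a kind that does not mark strand. The submitters' processing notes list FastQC, Bowtie, TopHat 1.2.0, edgeR and the build dm3 without saying how each was used. Per the file headers, the authors deposited for each of 8164 gene rows the log2 fold change between the ages, the log2 CPM averaged over libraries, a p-value and its FDR, in a table named for an exact test. A Benjamini-Hochberg adjustment of the p-values over all rows gives the deposited FDR. A further 12 columns hold values of single libraries under names that match no sample label; these were not used, so the quasi-likelihood test planned for matched columns was not run and depth per library is not given.

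Mean CPM is 2 raised to the deposited log2 CPM. Starts in the table count from 0, judged by span lengths against the annotation, and are printed from 1. Spans overlapping by at least 1 base were counted as overlapping. Exon lengths and gene identifiers come from the BDGP6 annotation of Ensembl release 115, matched by transcript identifier for 38 of 39 rows; no BDGP6 coordinate is printed. The rule for reporting took members that were called, had an unadjusted p under 0.05, or stood among the 2 largest differences or abundances of their role. Level, p and position are printed for only some of these. The rest follow for completeness, except 2 members that meet this rule and enter the counts and medians but are not reported singly here. The members and lists were chosen with earlier results of these data known. Computations used Python 3.11.15, numpy 2.4.6 and pandas 2.3.3. The adjustment of p-values was tested on simulated p-values and the search for overlaps on a small made-up layout, and the other steps were not tested in this way.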

Additional observations from a re-analysis of the deposited data

How the results depend on the processing

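No paired analysis was possible because the library columns match no sample label and were not used, and for the same reason no replicate was left out. Against 3 calls among the repair rows, 0 were made when the deposited edgeR p-values were adjusted again over the 6033 rows of at least 5 CPM; 25 repair rows were left, 4 of them with an unadjusted p under 0.05, and 3.78% of all rows were called. A threshold of 0.01 left 1 call, the row of Ku80, against 4.61% of all rows; a threshold of 0.1 gave 4 against 10.9%, and a minimum 2-fold difference 3 against 6.71%. Single-gene rows gave 2 calls against 7.14% of such rows, as did rows overlapping no other, against 8.19%. Among the latter, 4 repair rows had an unadjusted edgeR p under 0.05, and the share over all such rows was not computed. Counting the row of timeout as tim-2, chosen after seeing the data, gave 4 calls in 40 rows. The median log2 fold change of the repair rows was 0.14 in single-gene rows, 0.17 at 5 CPM or more and 0.26 in rows overlapping no other, against 0.21 in all, and the median abundance was 7.16, 14.1 and 8.59 CPM. The share of positive signs stayed between 76.2% and 80.0% under these 3 alternatives. How far any value rests on 1 library was not tested.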

Other observations

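Genes whose products work as a pair did not always stand on the same side of 0, and no difference within a pair was tested. According to the authors' deposited table both Ku genes and both genes of the XPF nuclease pair were positive, whereas Fancl and Fancd2, and nbs and mre11, had opposite signs. The genes of the checkpoint clamp were mixed in sign: Rad9 had a log2 fold change of 0.21, the row of Rad1 0.51 and Hus1-like -0.33 according to the authors' deposited table, while its loader gene Rad17 had 0.74, at FDRs of 0.780, 0.672, 0.687 and 0.315. The lesion recognition genes mus210 (XPC) and Rad23 had -0.37 and -0.33 according to the authors' deposited table, opposite in sign to the 6 positive excision rows that act after them, at FDRs of 0.615 and 0.672. These genes were named after their values were seen.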
